A study of Caenorhabditis elegans with 2 samples.

Results

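Binding of the homeodomain protein CEH-82, encoded by F45C12.2, was examined at the histone genes of Caenorhabditis elegans larvae of the L1 stage, the first after hatching. The members were all protein-coding genes of the WBcel235 annotation whose symbol was his- followed by a number, 72 of 19973 protein-coding genes. Histones are the proteins around which DNA is wound. H2A, H2B, H3 and H4 form the nucleosome core and H1 binds the DNA between nucleosomes. Most core histone genes of this worm lie in clusters of near-identical copies, often as divergent pairs that share one upstream region, and are transcribed when DNA is replicated. Variant genes, such as those of H3.3, can supply histone outside replication.

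The data were peak lists of chromatin immunoprecipitation followed by sequencing from 2 biological replicates, which formed 1 group. Both came from whole L1 larvae of strain OP212, with genotype unc-119(ed3) III and ddEx58, in which the CEH-82 protein carried GFP-FLAG at its C-terminus. Males and females were pooled. The antibody is given only as ceh-82 and the transgene as an insertion, whereas the tag was GFP-FLAG and ddEx58 is the name of an extrachromosomal array, so neither the antibody nor the tagged copy is clear, and no untagged or other-stage group was analysed here. The optimal list, whose peaks the authors selected by an analysis of how ranks repeat between replicates, had 2346 peaks, the pooled relaxed list had 20459 and each replicate's relaxed list had 30000. Signal is the authors' value per peak on a scale that the sources used here do not define, and rank 1 is the strongest peak of a list. All 2346 optimal peaks stood in the pooled relaxed list with the same signal (within 0.0001), and they were its 2346 strongest, so an optimal peak is a strong pooled peak and need not rank high in both replicates. The depth of each replicate is unknown, and values from whole animals do not tell which cells held the protein.

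By position and kind, 61 members were clustered (in a chain of at least 3 members with neighbouring starts within 10 kb), 5 were isolated (his-67, his-68, his-38, his-40 and his-73), and 6 were variant (the H1 gene his-24 and the H3.3-type genes his-69, his-70, his-71, his-72 and his-74). By protein identity the members were 17 H2A genes, 17 H2B genes, 21 H3 genes, 16 H4 genes and 1 H1 gene. The other linker histone genes, hil-1 to hil-8, are not members because of their symbols. All 16 H4 proteins were identical to that of his-1, 16 of the 17 H2A proteins to that of his-3, and 15 of the 21 H3 proteins to that of his-2. The H2B-typed his-39 and the H3-typed his-73 encode short proteins of 67 and 46 residues, so their types are uncertain. The annotation gave only 50 distinct names to the 72 genes, with up to 4 genes under 1 name, so each gene is called here by its RefSeq symbol, matched through its WormBase ID for 72 of 72.

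The sequences around 5 summits of the optimal list and 1 of the pooled relaxed list that lay at member starts are shown because they carry the peaks described below. Each window reaches up to 75 bases either side of the summit and ends before the annotated start of the gene. Capitals mark the 9 bases ATGTGTCCC or their reverse complement GGGACACAT, which recurred among these windows. The window of his-24 overlaps the non-coding RNA gene M163.19 and that of his-3/his-4 the non-coding RNA gene T10C6.19. Coordinates are on WBcel235 (ce11).

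his-37 (chrV:9546939-9547089, plus strand): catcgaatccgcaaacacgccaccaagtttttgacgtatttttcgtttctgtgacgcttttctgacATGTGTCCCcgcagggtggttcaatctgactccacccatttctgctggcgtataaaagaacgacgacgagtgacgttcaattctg

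his-72 (chrIII:12369102-12369252, minus strand): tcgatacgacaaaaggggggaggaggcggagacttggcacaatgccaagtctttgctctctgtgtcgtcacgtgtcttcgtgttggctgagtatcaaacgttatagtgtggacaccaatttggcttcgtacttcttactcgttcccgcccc

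his-24 (chrX:14489972-14490093, plus strand): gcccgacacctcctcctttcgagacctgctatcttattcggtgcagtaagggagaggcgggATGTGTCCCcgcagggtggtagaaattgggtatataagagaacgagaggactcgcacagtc

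his-61/his-62 (chrIV:7486338-7486488, plus strand): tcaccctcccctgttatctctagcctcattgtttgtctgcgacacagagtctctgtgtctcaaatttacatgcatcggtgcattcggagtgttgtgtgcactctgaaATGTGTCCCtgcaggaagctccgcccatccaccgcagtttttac

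his-35/his-41 (chrV:9545406-9545535, plus strand): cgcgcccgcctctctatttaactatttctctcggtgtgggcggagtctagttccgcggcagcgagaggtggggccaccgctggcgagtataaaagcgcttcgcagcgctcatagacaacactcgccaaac

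his-3/his-4, pooled relaxed list (chrV:16040553-16040703, plus strand): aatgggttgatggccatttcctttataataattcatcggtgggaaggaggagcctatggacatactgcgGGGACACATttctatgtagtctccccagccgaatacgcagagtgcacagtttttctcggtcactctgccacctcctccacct

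Of the 72 histone genes, 9 (12.5%) had an optimal-list summit no more than 500 bp from the start, against 8.18% of all protein-coding genes. These 9 starts drew on 6 peaks, since 3 peaks lay between divergent genes and counted for both. Of the clustered genes 5 of 61 had such a summit (8.20%), of the isolated genes 2 of 5 and of the variant genes 2 of 6. By type they were 3 of 17 H2A genes, 2 of 17 H2B genes, 1 of 21 H3 genes, 2 of 16 H4 genes and the H1 gene. The clustered share was thus close to the background, and the isolated and variant groups held only 5 and 6 genes. Of the 5 clustered genes with an optimal summit, his-35, his-41 and his-37 each have an intron, as do only 8 of all 72 members. The others, his-61 and his-62, have no intron and share a peak. In the pooled relaxed list 14 of 72 histone genes (19.4%) had a summit, against 27.4% of all genes. In the relaxed lists of the replicates the counts were 13 (18.1%, against 35.1% of all genes) in replicate 1 and 15 (20.8%, against 35.0%) in replicate 2. The share of histone genes was therefore above the background in the optimal list and below it in all 3 relaxed lists. The difference in the optimal list rested on few peaks. Counting a shared peak for the closer gene alone left 6 of the 72 histone genes. The share over all genes counted in that way is not given here, so an excess over the background was not tested for this count. Among the 2346 strongest peaks of each replicate, 7 histone genes (9.72%) had one in both replicates, against 6.56% of all genes.

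The strongest peak at a histone gene lay upstream of his-37, which encodes H4 and has an intron, unlike most members. Its signal was 224 in the optimal list (rank 73), 94.9 in replicate 1 (rank 93) and 126 in replicate 2 (rank 75). The summit stood 91 bp upstream of the start, and replicate summits were within 17 bp of it. This H4 gene thus held a high rank in both replicates, while its protein is the same as that of 15 other genes, of which only his-67 also had an optimal summit.

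The second, between the H4 gene his-67 and the H2A gene his-68, had a signal of 79.4 (rank 691), with 33.7 in replicate 1 (rank 775) and 45.4 in replicate 2 (rank 648). Its summit was 251 bp upstream of his-67 and 118 bp upstream of his-68. This was the only divergent pair of an H2A and an H4 gene, since the others joined H2A to H2B or H3 to H4. The other isolated genes had no summit within 500 bp in any list. For the divergent H4 gene his-38 and H3 gene his-40 the nearest optimal summit, with a signal of 38.1, lay 3219 and 3454 bp away, and for his-73 it lay 11656 bp away.

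The peak at his-72, an H3.3 gene, had a signal of 60.8 (rank 1038), with 21.2 in replicate 1 (rank 1500) and 44.1 in replicate 2 (rank 683). The summit lay 127 bp upstream of the annotated gene start. That start belongs to a transcript whose protein of 151 residues had only 18.5% identity to the closest core or linker histone. The protein of the H3.3 transcript had 93.4% identity to that of the H3 gene his-2. This transcript starts 886 bp further downstream, and its start was 1013 bp from the summit. The call at his-72 therefore holds for the gene start and not for the start of the H3.3 transcript.

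The peak at his-24, the only H1 linker histone gene among the members, had a signal of 50.7 (rank 1316). It was 18.9 in replicate 1 and 32.2 in replicate 2, and the summit lay 47 bp upstream of the start. The summit also lay inside M163.19, an annotated non-coding RNA gene. Which of the 2 genes the peak belongs to cannot be told apart.

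A pair of divergent intervals between clustered H2A and H2B genes each had a weaker peak. Between his-35 and his-41 the signal was 48.7 (rank 1396), with 21.2 in replicate 1 (rank 1509) and 26.1 in replicate 2 (rank 1471). Between his-61 and his-62 it was 49.1 (rank 1382), with 11.9 in replicate 1 (rank 3453) and 37.4 in replicate 2 (rank 916). The replicates thus gave similar ranks for his-35 and his-41 and unlike ranks for his-61 and his-62, which fell outside the 2346 strongest peaks of replicate 1. Across all 9 genes the summit lay upstream of the start, as it did for 91.9% of the 1633 genes with an optimal summit. The median signal was 50.7 at histone genes and 63.1 over all 1633.

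**Figure D1:**
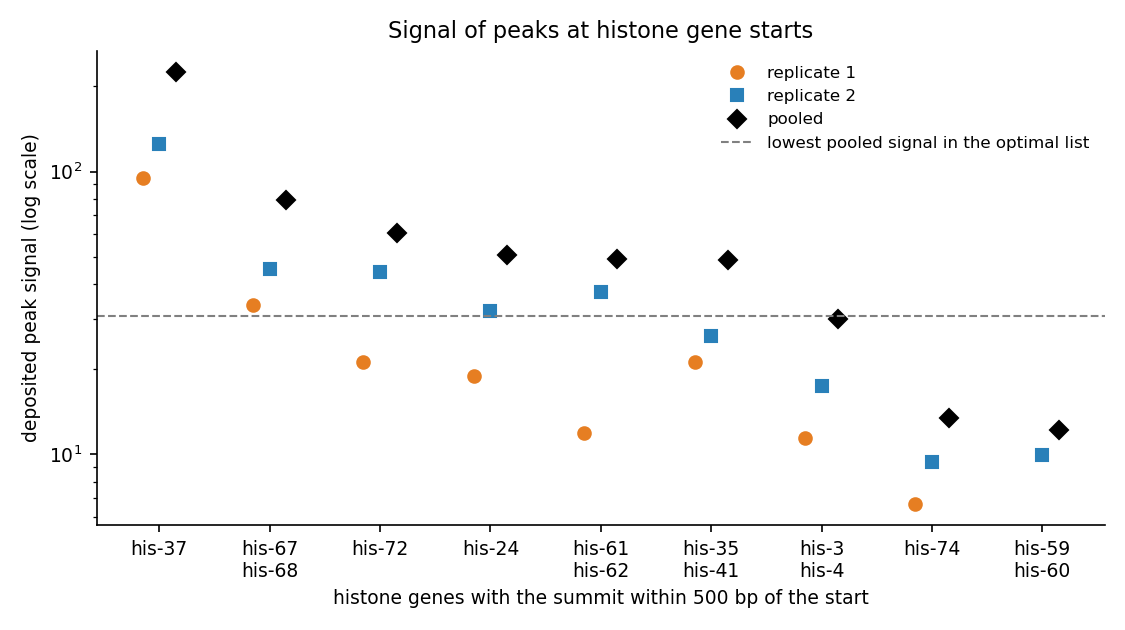
Deposited signal (log scale) of each peak at histone gene starts in replicate 1, replicate 2 and the pooled list, with the peaks in order of pooled signal. The peak at his-37 stands above the others in all 3 lists, the one at his-61/his-62 has the most unlike ranks in the replicates of the 6 optimal peaks (3453 and 916), and his-59/his-60 had no replicate 1 peak.

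Weaker peaks of the pooled relaxed list added 5 genes. The peak between his-3 (H2A) and his-4 (H2B) had a signal of 30.1 (rank 2399), just under the lowest signal of the optimal list, 30.9, with 11.4 in replicate 1 and 17.4 in replicate 2. The peak between the H3 gene his-59 and the H4 gene his-60 had a signal of 12.18 (rank 15638), with 9.92 in replicate 2 and none in replicate 1. At his-74, an H3.3-type gene, the signal was 13.5 (rank 11815) and the summit lay 481 bp upstream. The nearest summits of replicates 1 and 2 lay 706 and 552 bp upstream, with signals of 6.69 and 9.39, so neither was within 500 bp. The H3.3-type genes his-69, his-70 and his-71 had no pooled summit within 500 bp. For his-69 and his-70 the nearest lay 745 and 2121 bp away, and for his-71 577 bp away. In replicate 1 alone, his-71 had a weak summit 76 bp upstream, with a signal of 6.09.

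Of the members within the 500-bp limit, his-67, at 251 bp, and his-61, at 196 bp, lay farthest from an optimal summit. Nearest outside the limit were his-42, an H3 gene, and his-74. For his-42 the nearest optimal summit (signal 33.9) was 627 bp upstream. That summit lay inside both the small nuclear RNA gene F08G2.10 and the non-coding RNA gene F08G2.15. For his-74 the nearest (signal 50.2) was 720 bp downstream and inside ccch-3. No member start therefore lay between 251 and 627 bp from an optimal summit.

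Most histone genes stand in sequence that occurs more than once in the genome. Of the 36-mers within 500 bp of the start, the median share that occurred once, on either strand, was 7.61% over histone genes and 100% over all protein-coding genes. The median was 3.73% for clustered, 81.1% for isolated and 100% for variant members. At 25 members no 36-mer was unique, and 44 members (61.1%) had under 50% unique, against 550 of all genes (2.75%). The share is a property of the reference genome. The median distance to the nearest pooled summit was 2855 bp over histone genes, against 1598 bp over all genes, and it was 3923 bp for clustered, 1549 bp for isolated and 529 bp for variant members. Neither the read length nor the treatment of reads with several matches is given in the sources used here.

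Optimal and pooled summits were found only at members with more than 50% unique 36-mers. In replicate 1 alone a weak summit, with a signal of 5.89, lay 495 bp from the H2A gene his-57, which had 3.002% unique 36-mers. Of the 40 members with under 25% unique 36-mers, none had an optimal or a pooled summit, and none of the 322 genes of the genome in that range had one either. Of the 4 members between 25 and 50%, none had an optimal or a pooled summit, while 4 of 228 genes had an optimal one (1.75%) and 11 a pooled one (4.82%). Of the 7 members between 50 and 75%, none had an optimal and 2 had a pooled summit (28.6%), against 20 (3.41%) and 60 (10.2%) of 586 genes. Of the 21 members with 75% or more, 9 had an optimal (42.9%) and 12 a pooled summit (57.1%), against 1609 (8.54%) and 5405 (28.7%) of 18837 genes. The ranges were chosen after the peaks were seen, and paired members share a peak, so these shares are descriptions. For the 40 members in the lowest range, a missing peak and missing unique reads cannot be told apart.

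**Figure D2:**
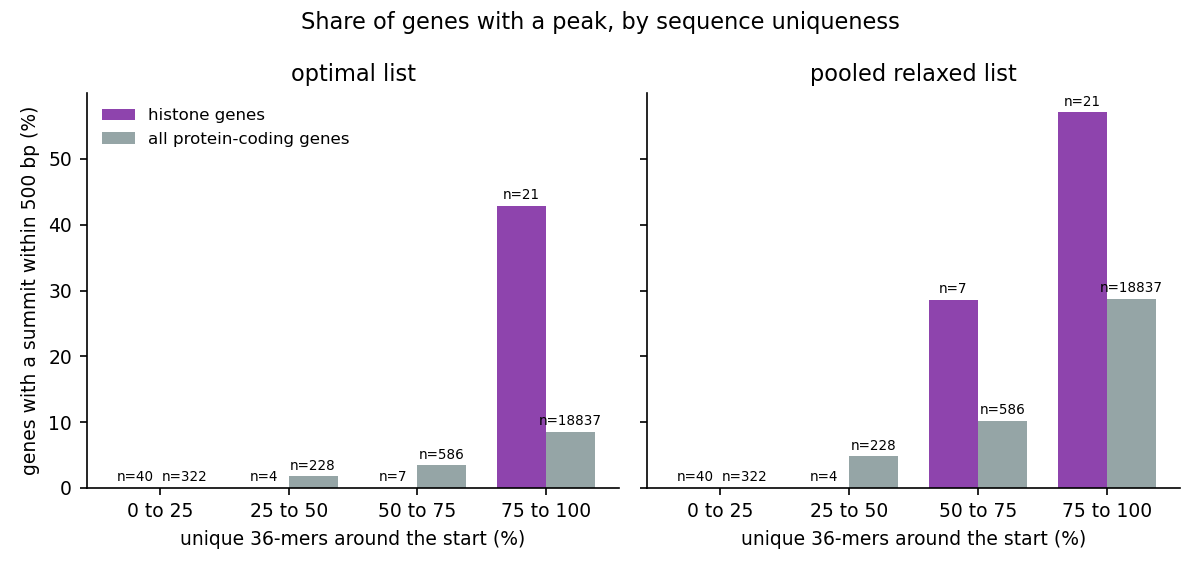
Share of genes (%) with a summit within 500 bp of the start in the optimal list (left) and in the pooled relaxed list (right), by the share of unique 36-mers around the start, for histone genes and all protein-coding genes, with the number of genes above each bar. In the highest range histone genes stand at 42.9% and 57.1%, and in the lowest range both groups are at 0.

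**Figure D3:**
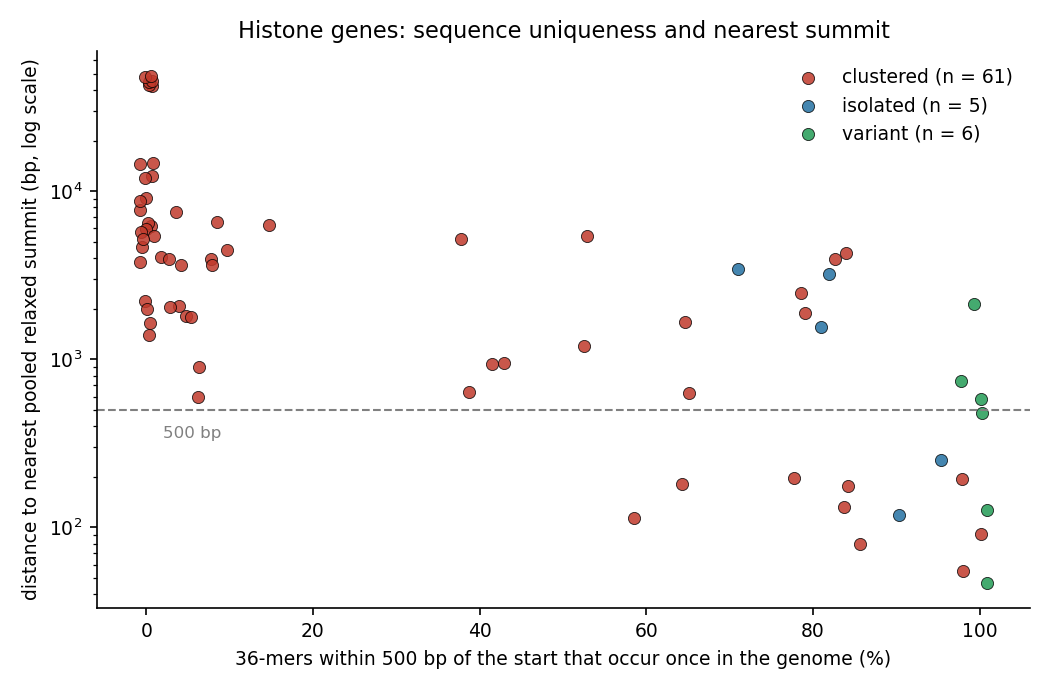
Distance (bp, log scale) from each of the 72 histone gene starts to the nearest pooled relaxed summit, against the share of unique 36-mers (%), with points shifted sideways at random by at most 1 percentage point. Every point under the 500-bp line has more than 50% unique sequence, and members with little unique sequence lie between 598 and 48355 bp from a summit.

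The same was seen between divergent genes. There were 31 divergent pairs within 1000 bp, 16 of H2A with H2B, 14 of H3 with H4 and 1 of H2A with H4, and the sequence between their starts was 227 to 368 bp long. An optimal summit lay in 3 of the 31 intervals and a pooled one in 5. All of these were among the 11 pairs with 75% or more unique 36-mers between the starts. Of the other 20 pairs, 17 had no unique 36-mer there, and none held a summit in the optimal, pooled or replicate lists. H3/H4 pairs had an optimal summit in 0 of 14 and H2A/H2B pairs in 2 of 16.

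Not every unique interval held a peak. Between the starts of the H3/H4 pairs his-2/his-1 and his-38/his-40 all 36-mers were unique, and no list had a summit there. The H2A/H2B pair his-8/his-7 also held no peak in any list. It had 79.4% unique 36-mers between the starts, but only 41.2% within 500 bp of his-8 and 39.1% of his-7. Its central 36-mer and that of the H2A/H2B pair his-4/his-3, with a pooled peak, are each found once in the genome. The same 36 bases at his-54/his-53 occur in 4 copies. They are shown to compare the 3 pairs, with capitals at the bases that differ from his-54/his-53.

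his-4/his-3 (chrV:16040643-16040678, plus strand): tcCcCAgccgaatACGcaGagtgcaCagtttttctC

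his-8/his-7 (chrV:8533214-8533249, plus strand): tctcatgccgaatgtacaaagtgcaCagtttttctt

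his-54/his-53 (chrV:8853505-8853540, plus strand): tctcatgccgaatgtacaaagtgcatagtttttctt

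His-8/his-7 differed at 1 base and his-4/his-3 at 9 of the 36. One changed base thus sufficed to make this 36-mer unique, and a unique 36-mer was not always accompanied by a peak. Of the 21 members with 75% or more unique 36-mers, 12 had no optimal summit. These were his-73, his-38, his-1, his-39, his-31, his-32, his-59 and his-60 and the variant genes his-69, his-70, his-71 and his-74.

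The longest stretch of chromosomes without a pooled summit that held histone genes lay at chrV:8805315-8904517. It was 99.2 kb long, the third widest of 20453 gaps between pooled summits, whose median was 2724 bp, and it held 14 histone starts of 29 protein-coding ones. Inside it 12.7% of 36-mers were unique, against 99.3% in the 50 kb to the left and 99.4% in the 50 kb to the right, and 63.3% of the 36-mers occurred in 2 copies. The pairs his-50/his-49, his-51/his-52 and his-54/his-53 recurred 42095 bp away as his-28/his-27, his-21/his-22 and his-20/his-19, with identical sequence between the starts. Replicate 1 had 3 summits and replicate 2 had 2 inside the stretch, all near its ends, with signals between 4.91 and 7.12. The lack of peaks was therefore the same in the pooled and both replicate lists over most of the stretch.

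**Figure D4:**
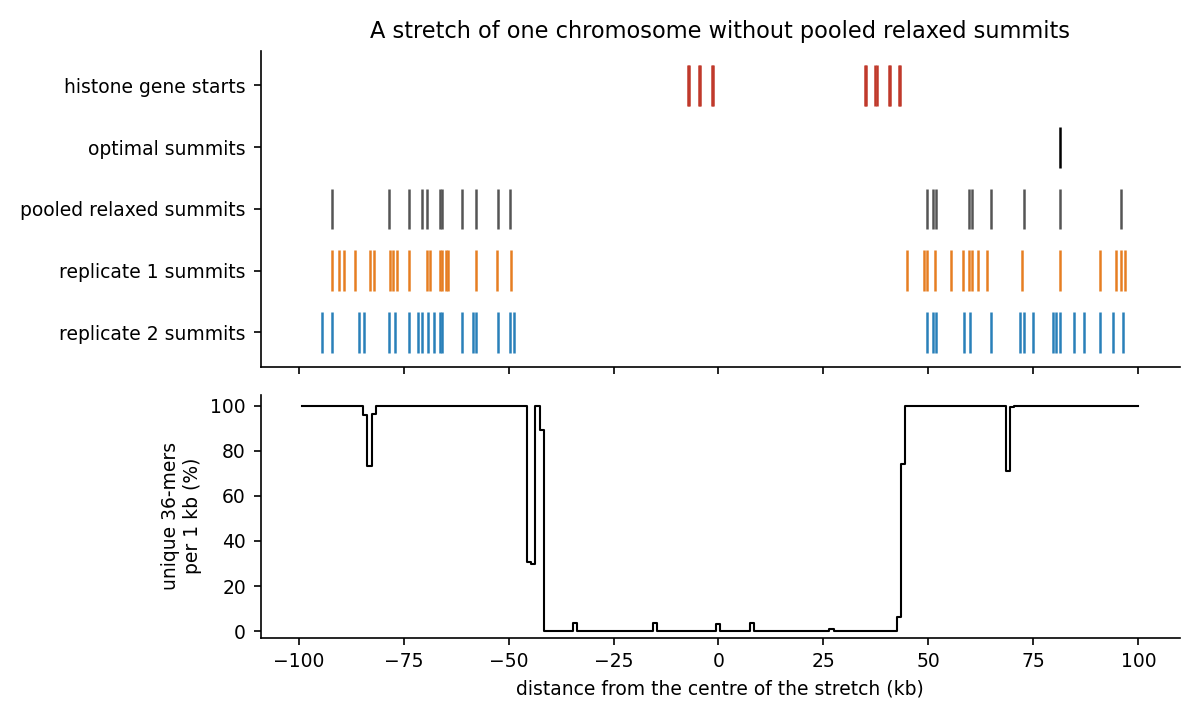
Histone gene starts and the summits of each list (top), and the share of unique 36-mers in 1-kb steps (bottom), by distance in kb from the centre of the 99.2-kb stretch. Pooled summits stop near the ends of the unique sequence on both sides, and both groups of histone genes lie inside.

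The other clusters ranged from almost no unique sequence to almost all. The 13 H2A, H2B, H3 and H4 genes from his-16 to his-42 had between 0 and 65.3% unique 36-mers and no summit within 500 bp in the optimal, pooled or replicate lists. Of the 6 genes from his-29 to his-34, the H4 gene his-31 and the H3 gene his-32 had the only unique interval, and a weak replicate 2 summit lay there. The 12 genes of the clusters his-47 to his-45, his-55 to his-57 and his-66 to his-64 had between 3.002 and 53.5%, and the replicate 1 summit at his-57 was the only one within 500 bp of them. The 5 genes from his-8 to his-39 had between 39.1 and 79.1% and no summit within 500 bp in any list. The 3 genes his-35, his-41 and his-37 had 97.2 to 100% unique 36-mers, and all 3 had an optimal summit.

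The bases ATGTGTCCC were chosen after the windows had been seen, as the longest run shared by 4 of the 6 optimal windows. They were found in his-37, his-24 and his-61/his-62, shown above, and in the window of his-67/his-68. They occurred, on either strand, in the promoters (250 bases before to 50 after the start) of 43 of 72 histone genes (59.7%), against 71 of all 19973 (0.355%). Among clustered, isolated and variant members the counts were 39 of 61, 2 of 5 and 2 of 6. They were in 6 of the 9 genes with an optimal summit (66.7%) and in 37 of the 63 without (58.7%). Of the 28 genes outside the histones with these bases, 2 had an optimal summit (7.14%), against 8.18% of all protein-coding genes. Of all 2346 optimal windows 8 held them (0.341%), and these 8 include the 4 histone windows from which the bases were chosen. The shares with and without a summit were thus close to each other, and both were far above the share over all genes. Near-identical copies are not separate observations, and a match is a description of sequence only.

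Of the motifs listed for these promoters, on both strands, TATAAA was in 47 of 72 histone genes (65.3%), against 37.9% of all genes, and CCAAT in 39 (54.2%), against 45.5%. GAGAGA was in 33 (45.8%), against 21.8%, with 12 of 17 H2A and 11 of 17 H2B genes but 4 of 21 H3 and 5 of 16 H4 genes. The homeodomain core TAATTA was in 1 histone promoter (1.39%), against 15.5%, and the octamer ATTTGCAT in 0, against 2.86%. TAATTA was in none of the windows of 50 bases either side of the 6 optimal summits at histone genes, and in 1.02% of those at all 2346.

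Annotation also differed between members. In 64 of 72 the gene model began and ended with the coding sequence, against 14.1% of all genes, so that the annotated start is the start codon and the true start of transcription lies at an unknown distance upstream. Of these 64, 4 had an optimal summit (6.25%), and of the 8 with further sequence or introns, 5 had one. The 8 also had more unique sequence, with a median of 100% unique 36-mers against 5.38%, so the model and the sequence cannot be told apart.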

How the data were processed

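Peak lists on ce11 were used, with the WBcel235 genome and Ensembl release 115 annotation. Per the deposited file descriptions, the authors made relaxed lists of peaks and background for each replicate and for both together against a control, and an optimal list from them by the irreproducible discovery rate. The signal of a peak is the authors' deposited value, used to rank, describe and select peaks. The optimal list keeps the signals of the pooled list, so these are on 1 scale, and replicates were compared by rank, with their signals given only as description. The aligner, peak caller and threshold are not given in the sources used here, and depth is unknown.

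A gene was counted when a summit lay within 500 bp of its annotated start. Histone type was the closest match, over all annotated proteins of a gene, to his-24, his-3, his-4, his-2 or his-1. Copies of each 36-mer were counted on both strands. Counting was tested on simulated data. Members and lists were chosen with earlier results of these data known, so no test was run and counts stand beside those over all genes. Named genes were members with an optimal summit, variant members, the clustered members with the 5 highest pooled signals, members with an optimal summit between 500 and 1000 bp, and members of the second list with an optimal summit. Other members were named for sequence comparisons after their values were seen. Python 3.11.15, numpy 2.4.6, pandas 2.3.3, Biopython 1.88 and matplotlib 3.10.9 were used.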

Additional observations from a re-analysis of the deposited data

How the results depend on the processing

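No paired analysis was possible because the 2 replicates formed 1 group. Of 9 histone genes with an optimal summit, 4 remained among the 1173 peaks of higher signal. With the 2346 strongest peaks of a single replicate the counts were 7 to 9, and his-61 and his-62 were lost without replicate 2. Of the 5 clustered genes, 3 remained with each summit given only to its nearest start, 1 among the peaks of higher signal, and 3 to 5 without a replicate. With clusters of at least 4 genes, an alternative added after the data were seen, the clustered count was 2 of 58 and the isolated count 5 of 8, because his-35, his-41 and his-37 changed class. The isolated count of 2 became 1 at 250 bp, 1 with nearest starts only and 0 with pairs counted as clusters. The variant count of 2 became 1 among the peaks of higher signal, and 1 with the start of the transcript closest to a histone, also added after the data were seen, which removed his-72. A pooled summit lay within 1000 bp of 22 starts, against 14 within 500 bp, and single replicates gave 13 to 15. The count in both replicates' strongest peaks was 3 with the 1173 strongest peaks and 11 with 4692, against 7. For these alternative counts of summits the share over all genes is not given here, so they cannot be set against a background. TAATTA was in 2 histone promoters of 500 bases (2.78%), against 26.5% of all genes. The other 52 alternative values stayed within 1.5 times, or within 1 SD for the median share of unique 36-mers. With no read counts, no interval can be given.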

Other observations

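Other histone and chaperone genes, from a list chosen with earlier results known, are described here by their counts. Of 26 genes, 5 (19.2%) had an optimal summit within 500 bp, against 8.18% of all protein-coding genes, and 14 (53.8%) a pooled one, against 27.4%. For these 26 genes the median share of unique 36-mers was 100%. The strongest was at htz-1, the gene of the variant H2A.Z, with a signal of 227 (rank 71), 103 in replicate 1 and 128 in replicate 2, and a summit 320 bp upstream. The others were lin-53, which encodes a histone-binding protein (171, rank 141), nap-1, a nucleosome assembly protein gene (70.6), chaf-2, a chromatin assembly factor gene (62.4), and unc-85, which encodes a histone chaperone of the ASF1 family (39.8). All 5 were among the strongest peaks of both replicates. The peaks at htz-1, lin-53, nap-1 and chaf-2 also lay within 500 bp of the start of another gene. For cdl-1, which encodes the protein that binds the stem-loop of histone messages, no optimal summit lay within 500 bp, and the nearest pooled summit was 126 bp upstream with a signal of 26.0, with 11.7 in replicate 1 and 13.9 in replicate 2. For hcp-3, which encodes the centromeric H3, there was no optimal summit within 500 bp either, and the nearest pooled summit was 144 bp upstream with a signal of 22.4, with 15.1 in replicate 1 and 10.5 in replicate 2. None of the linker histone genes hil-1 to hil-8 had an optimal summit within 500 bp. Only hil-3 and hil-7 had a pooled one, 50 and 489 bp upstream, with signals of 19.1 and 24.7.

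The other 2 wide gaps without pooled summits held no histone gene. The widest, 294 kb at chrV:2294818-2589114, had 21.7% unique 36-mers, and the next, 104 kb at chrV:17094326-17198254, had 76.4%.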
